A study of Canis lupus familiaris with 12 samples.

Results

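The hippocampus of beagle dogs that had undergone 2 weeks of rapid atrial pacing was compared with that of sham dogs by messenger RNA sequencing. The comparison used the 6 hippocampal libraries, 3 per arm, of the 12 samples in the series; the other 6 hold exosomal microRNA and did not enter. Each hippocampal library is identified by arm and replicate number, and the labels give breed, tissue and treatment but not age, sex or any genetic change. They say that dogs were allocated to the arms at random, and they do not say that each library came from a separate dog, so p-values measure the spread between these samples, which may be technical. What was done in the sham dogs is not stated. Of 31158 gene models, 16090 had a mean of at least 0.5 RPKM (reads scaled to exon length and to the library's total) over the 6 libraries and were tested. Of those, 12170 were protein-coding genes with a symbol, from 15503 such genes in the table, and these are the subject below.

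Rapid atrial pacing drives the upper chambers of the heart electrically and is a large-animal model of atrial fibrillation. The design asks how that rhythm relates to cognitive impairment. The hippocampus holds granule cells of the dentate gyrus and pyramidal cells of the CA fields, beside interneurons, glia and vessels, and is needed to form new memories. A whole-tissue library averages all of these cells, so fewer cells of a type and less RNA per cell cannot be told apart.

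Libraries held 35003483 to 51789497 assigned reads, and mitochondrial genes took 6.05 to 9.19% of them. Hippocampal identity markers were present in every library: PROX1, the granule cell factor, lay between 4.82 and 7.902 RPKM and the pyramidal cell factor NEUROD6 between 188 and 345. The sham libraries varied more among themselves than the pacing libraries. The median within-arm SD of log2(RPKM + 1) was 0.180 in sham and 0.0854 in pacing, and the SD was larger in sham for 9768 of the 12170 genes. Sham replicate 2 was the library farthest from the gene mean for 43.1% of genes. Of 13 tested markers of thalamus and striatum, 3 were higher (23.1%, against 4.57% of all symbol genes) in every pacing library. In every pacing library 1 of them was lower (7.69%, against 10.6%). The choroid plexus marker TTR and markers of myelin moved with single sham libraries. TTR, which encodes the thyroid hormone carrier made by the choroid plexus, stood at 155, 70.5 and 103 RPKM in pacing and 2.46, 449 and 42.9 in sham, and over 11 oligodendrocyte markers the mean log2 deviation was 0.74 in sham replicate 2 and -0.59 in sham replicate 3. Blood genes were mixed. The T cell gene CD3D was at 0 in 3 libraries and the red cell anion exchanger SLC4A1 at 0 in 5. LYZ lay between 10.1 and 18.6 RPKM and PTPRC between 2.86 and 4.87. The T cell gene CD2 stood at 0.881, 1.41 and 0.609 RPKM in pacing and 0.377, 0.363 and 0.412 in sham. Of 7 tested leukocyte markers 3 were higher by arm mean, 1 of them in every pacing library, and 4 were lower.

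No protein-coding gene with a symbol passed an adjusted p of 0.05 in limma, 0 of 12170 (0%), against 4 of all 16090 genes tested (0.0249%), which are unnamed models. edgeR on the recovered reads called 1 symbol gene and 5 genes in all. At an unadjusted p under 0.05 there were 275 symbol genes higher (2.26%) and 613 lower (5.04%) in pacing. All pacing libraries lay above all sham libraries for 556 genes (4.57%) and below them for 1291 genes (10.6%). The excess of lower genes depended on scaling. Under median-of-ratios scaling the counts were 986 higher (8.1%) and 861 lower (7.07%), and over all genes the unadjusted split moved from 459 higher and 1014 lower to 741 and 716, or to 638 and 749 under quantile scaling. The median symbol gene differed by -0.032 on the log2 scale as deposited, by 0.020 under median-of-ratios scaling and by 0.0038 under quantile scaling. All log2 differences below are of log2(RPKM + 1), pacing minus sham, with BH-adjusted p over all 16090 genes, and they understate the change of low genes. Leaving out sham replicate 1 or 2 raised the symbol genes that passed to 45 and to 1.

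**Figure D1:**
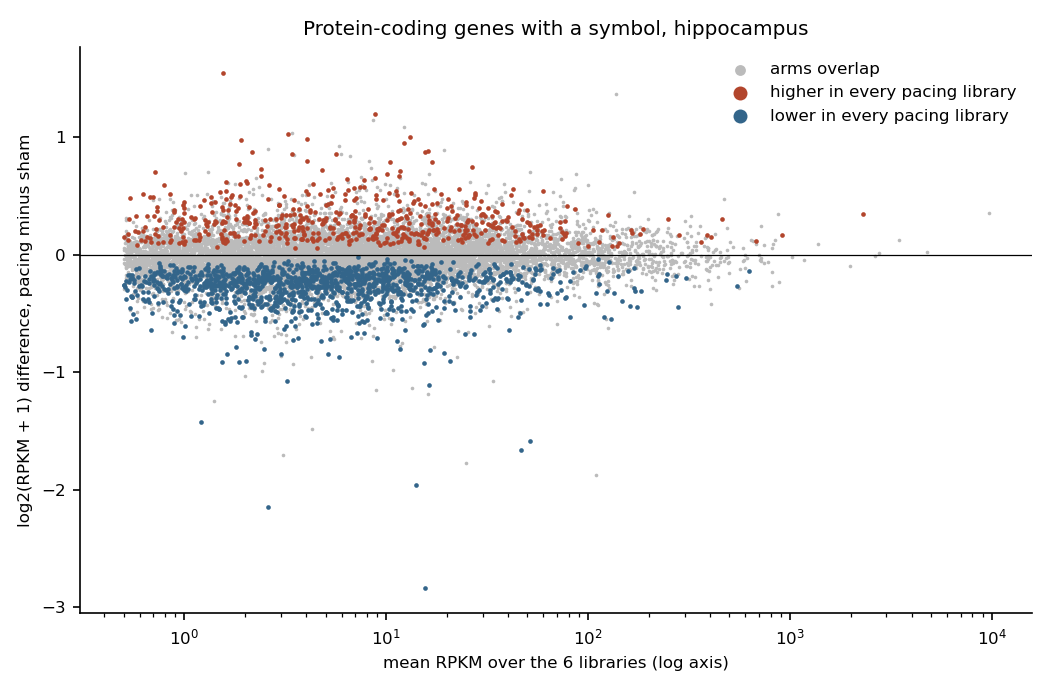
Each point is 1 of the 12170 protein-coding genes with a symbol; the x axis is mean RPKM over the 6 libraries (log axis) and the y axis the log2(RPKM + 1) difference, pacing minus sham. The 556 genes higher and the 1291 lower in every pacing library are coloured, most of them within 1 log2 unit of 0.

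Transcript length and level also moved with the split. Symbol genes were divided by exon length into 5 equal bins. In the shortest bin, up to 1751 bases, 6.90% were lower and 5.67% higher in every pacing library. In the longest bin, from 5562 bases, 13.1% were lower and 2.96% higher. Under median-of-ratios scaling the shortest bin had 5.30% lower and 10.5% higher, which turned its direction, and the longest 8.30% lower and 5.09% higher. By level, 11.8% of the lowest of 5 bins and 6.33% of the highest were lower in every pacing library.

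The gene with the smallest p among those higher in pacing was CALML5, on chromosome 2 from 30431088 to 30431950 (CanFam3.1), which encodes a calmodulin-like calcium-binding protein. It stood at 3.66, 2.46 and 2.28 RPKM in pacing and 0.534, 0.134 and 0.222 in sham (log2 difference 1.55 ± 0.17 SE, adjusted p = 0.0847). Every pacing library lay above every sham library, by 293 reads in the pacing arm against 36 in sham. The zinc finger gene ZNF165 stood at 6.04, 5.62 and 5.36 RPKM in pacing and 3.01, 2.46 and 1.76 in sham (log2 difference 0.98 ± 0.15 SE, adjusted p = 0.193). The EF-hand gene EFCC1 stood at 13.7, 14.5 and 12.1 RPKM in pacing and 8.87, 6.15 and 7.18 in sham (log2 difference 0.79 ± 0.14 SE, adjusted p = 0.2596). Neither arm overlapped the other for these genes, and sham replicate 1 was the sham library nearest to pacing in all of them.

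Genes of cell division and ribosome assembly were among the 20 higher genes of smallest p. ORC6, a subunit of the complex that marks replication origins, stood at 1.18, 1.34 and 0.939 RPKM in pacing and 0.533, 0.494 and 0.271 in sham (log2 difference 0.59 ± 0.12 SE, adjusted p = 0.301). CENPH, a protein of the inner kinetochore, stood at 2.99, 2.74 and 2.26 RPKM in pacing and 1.33, 1.66 and 1.22 in sham (log2 difference 0.61 ± 0.12 SE, adjusted p = 0.301). PNO1, needed to mature the small ribosomal subunit, stood at 42.3, 46.1 and 41.02 RPKM in pacing and 32.6, 30.1 and 32.4 in sham (log2 difference 0.43 ± 0.091 SE, adjusted p = 0.312). In each of them the lowest pacing library was above the highest sham library, and levels of ORC6 and CENPH were low in both arms. A separate cell-cycle list gave values on both sides. Of its 39 tested genes 16 were higher and 23 lower, 2 and 3 of them in every pacing library, with a median of -0.026. CDC25C, the phosphatase that activates the mitotic kinase, chosen after its values were seen, was 1 of the higher ones, at 0.732, 1.23 and 0.836 RPKM in pacing and 0.702, 0.509 and 0.484 in sham.

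Other higher genes act in lipids, coenzymes or metal binding. COQ9, which acts in coenzyme Q synthesis, stood at 35.1, 32.2 and 30.4 RPKM in pacing and 24.1, 23.4 and 20.6 in sham (log2 difference 0.50 ± 0.10 SE, adjusted p = 0.302). HACD4, a dehydratase of very long chain fatty acid synthesis, stood at 2.12, 2.05 and 2.08 RPKM in pacing and 1.24, 0.947 and 1.202 in sham (log2 difference 0.54 ± 0.10 SE, adjusted p = 0.272). The zinc importer SLC39A3, from the metal list and not 1 of the 20, stood at 14.9, 17.8 and 11.5 RPKM in pacing and 10.2, 7.37 and 8.05 in sham (log2 difference 0.71 ± 0.18 SE, adjusted p = 0.3602). These 3 genes were higher in each pacing library than in each sham library. The metallothionein MT1E, a metal-binding protein, stood at 2.44, 1.57 and 2.48 RPKM in pacing and 0.966, 1.12 and 1.06 in sham (log2 difference 0.62 ± 0.14 SE, adjusted p = 0.322). It lies on an unplaced sequence and has close paralogs, so its reads may be shared. COQ9 shares 107 exon bases with a model on the other strand, LOC111092734, which differed by 0.44 itself, and the strand setting of the counting is not stated.

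RNASET2, a lysosomal ribonuclease, stood at 8.19, 8.15 and 7.31 RPKM in pacing and 4.57, 5.78 and 4.94 in sham (log2 difference 0.55 ± 0.11 SE, adjusted p = 0.301). SFN, which encodes 14-3-3 sigma, stood at 1.02, 0.907 and 0.997 RPKM in pacing and 0.539, 0.506 and 0.437 in sham (log2 difference 0.40 ± 0.089 SE, adjusted p = 0.322). The protein kinase gene HIPK4 stood at 2.86, 2.75 and 2.37 RPKM in pacing and 1.77, 1.34 and 1.05 in sham (log2 difference 0.63 ± 0.13 SE, adjusted p = 0.313). CCDC113, which encodes a protein of cilia and centriolar satellites, stood at 27.99, 27.5 and 26.998 RPKM in pacing and 18.3, 16.6 and 20.4 in sham (log2 difference 0.56 ± 0.10 SE, adjusted p = 0.264). None of these genes had overlapping arms. The remaining higher genes of the 20 were TNFRSF1B, SELPLG, APOC1, EPSTI1, CD74 and DLA-DRA, immune or lipid transport genes with differences from 0.56 for CD74 to 1.001 for TNFRSF1B and adjusted p from 0.151 to 0.301.

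**Figure D2:**
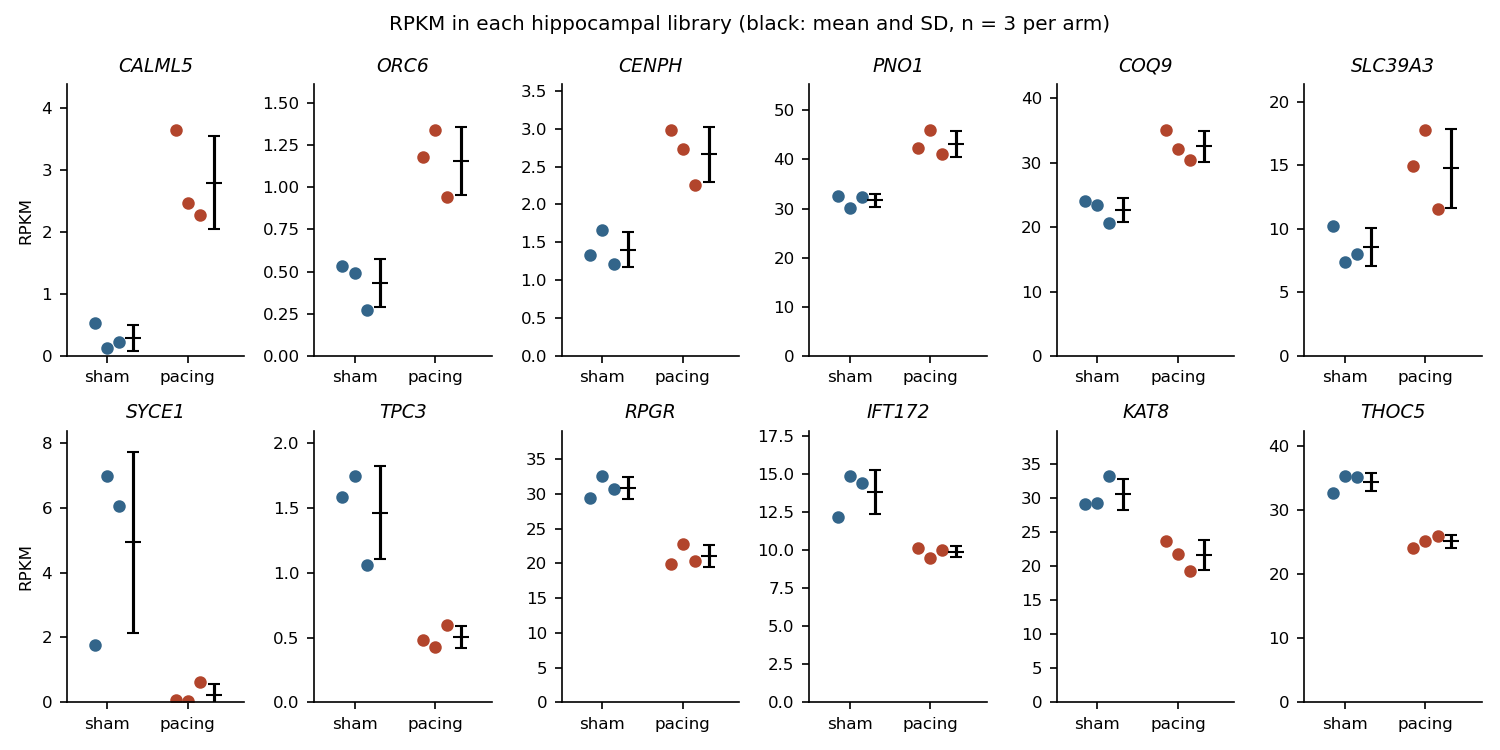
RPKM of 12 genes in each library (points: blue for sham, red for pacing), with the mean and SD of each arm in black (n = 3). The 6 genes in the upper row are higher and the 6 in the lower row are lower in each pacing library than in all 3 sham libraries; none passed an adjusted p of 0.05.

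Among the lower genes, several have roles in cilia, RNA export and meiosis. RPGR, on chromosome X from 33056371 to 33105036 in CanFam3.1, encodes a regulator of traffic into the cilium and stood at 19.96, 22.8 and 20.4 RPKM in pacing and 29.4, 32.5 and 30.8 in sham (log2 difference -0.53 ± 0.10 SE, adjusted p = 0.2596). THOC5, a subunit of the complex that couples transcription to mRNA export, stood at 24.1, 25.3 and 26.1 RPKM in pacing and 32.7, 35.3 and 35.2 in sham (log2 difference -0.44 ± 0.087 SE, adjusted p = 0.2899). Spread was small in both arms for these genes and no library crossed over. SYCE1, which encodes a protein of the meiotic synaptonemal complex, stood at 0.06199, 0.0329 and 0.615 RPKM in pacing and 1.77, 6.96 and 6.05 in sham (log2 difference -2.15 ± 0.40 SE, adjusted p = 0.272). Its arms did not overlap either, but sham replicate 1 lay well below the other sham libraries, and the difference was -2.63 without it.

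Other lower genes act in membranes, mitochondria and innate signalling. TPC3, which encodes a cation channel of endosomes and lysosomes, stood at 0.481, 0.431 and 0.597 RPKM in pacing and 1.59, 1.75 and 1.06 in sham (log2 difference -0.70 ± 0.13 SE, adjusted p = 0.272). CC2D1B, a partner of the membrane-remodelling protein CHMP4, stood at 29.8, 30.04 and 29.3 RPKM in pacing and 39.5, 43.1 and 41.2 in sham (log2 difference -0.46 ± 0.084 SE, adjusted p = 0.272). TICAM2, an adaptor of toll-like receptor 4, stood at 4.66, 4.26 and 3.905 RPKM in pacing and 6.14, 6.76 and 6.94 in sham (log2 difference -0.53 ± 0.10 SE, adjusted p = 0.273). These had separate arms. NAALADL1, a relative of the peptidase that cleaves N-acetylaspartylglutamate, stood at 7.34, 5.16 and 7.24 RPKM in pacing and 10.3, 11.1 and 12.6 in sham (log2 difference -0.71 ± 0.15 SE, adjusted p = 0.302). ATP5J2, a subunit of the mitochondrial ATP synthase, stood at 12.5, 12.2 and 13.6 RPKM in pacing and 17.1, 19.8 and 19.1 in sham (log2 difference -0.51 ± 0.10 SE, adjusted p = 0.273). SERHL2, a serine hydrolase-like gene, stood at 3.601, 3.26 and 3.89 RPKM in pacing and 5.49, 5.53 and 5.54 in sham (log2 difference -0.51 ± 0.10 SE, adjusted p = 0.273). FAM167A stood at 1.0001, 1.03 and 1.08 RPKM in pacing and 2.402, 1.81 and 1.84 in sham (log2 difference -0.56 ± 0.11 SE, adjusted p = 0.2802). All of them were lower in every pacing library. ATP5J2 shares 242 of its 4337 exon bases with BUD31 and SERHL2 454 of its 2187 with RRP7A on the opposite strand, and these partners differed by -0.20 and 0.052.

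DECR1, SAA1, ASPHD1, BIRC3, ZG16B, NEIL1, SELE, COL4A1 and COL4A2, which act in fatty acid oxidation, acute-phase response, apoptosis, DNA repair, leukocyte adhesion and basement membrane where a role is known, completed the lower genes of smallest p. Their differences ran from -1.42 for SELE to -0.56 for ZG16B, with adjusted p from 0.151 for DECR1 to 0.251 for COL4A1. SELE was the 1 symbol gene that passed without sham replicate 2 (adjusted p = 0.0373). Without sham replicate 2 its difference was -1.11.

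The number of passing genes rested on sham replicate 1. Without it 9 symbol genes were higher (0.074%) and 36 lower (0.296%) at an adjusted p of 0.05, against 0 with all 6 libraries. Since these genes were taken for passing once that library was dropped, its place nearest to pacing in them follows from the choice. It lay beyond every pacing library, on the sham side, in 6 of the 9 higher and 19 of the 36 lower genes. Over all symbol genes apart without it, the same held for 556 of 1577 higher and 1291 of 3094 lower genes.

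Splicing genes were among the 36. The kinase CLK1, which phosphorylates SR splicing factors, stood at 22.5, 22.4 and 21.2 RPKM in pacing and 28.9, 132 and 82.4 in sham (log2 difference -1.59 ± 0.48 SE, adjusted p = 0.417). Its relative CLK4 stood at 13.3, 14.96 and 12.5 RPKM in pacing and 15.6, 36.05 and 32.1 in sham (log2 difference -0.91 ± 0.29 SE, adjusted p = 0.445). RSRP1, an arginine- and serine-rich nuclear protein gene, stood at 4.07, 4.53 and 4.11 RPKM in pacing and 3.03, 18.8 and 18.7 in sham (log2 difference -1.15 ± 0.57 SE, adjusted p = 0.591). Sham replicates 2 and 3 were well above every other library in CLK1 and RSRP1, whereas sham replicate 1 was above pacing for CLK1 and CLK4 and below it for RSRP1. Without sham replicate 1 the adjusted p was 0.0208 for CLK1, 0.0208 for CLK4 and 0.00213 for RSRP1. The splicing factor gene RBM39, named after its values were seen, stood at 104, 103 and 103 RPKM in pacing and 115, 185 and 164 in sham.

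Sham replicate 1 also stood apart from the other sham libraries in RGS2 and HSP70. RGS2, an inhibitor of Gq signalling induced by neuronal activity, stood at 8.43, 8.03 and 8.45 RPKM in pacing and 7.84, 33.6 and 30.2 in sham (log2 difference -1.19 ± 0.48 SE, adjusted p = 0.534). The chaperone gene HSP70 stood at 38.6, 30.7 and 37.4 RPKM in pacing and 38.3, 178 and 336 in sham (log2 difference -1.87 ± 0.69 SE, adjusted p = 0.492); genomes usually carry near-identical copies of it, between which reads may be split. For both, sham replicate 1 lay inside or below the pacing range and the other sham libraries were several times higher. Further genes of the 36 were chosen after their values were seen. The mRNA decay factor ZFP36 stood at 0.8404, 1.07 and 1.21 RPKM in pacing and 0.716, 6.62 and 4.07 in sham. The MAP kinase phosphatase DUSP1 stood at 3.63, 3.63 and 3.497 RPKM in pacing and 2.3001, 7.98 and 6.98 in sham. The glycolytic hexokinase HK2 stood at 0.806, 0.7898 and 0.828 RPKM in pacing and 0.814, 2.11 and 2.56 in sham. In these 5 genes sham replicates 2 and 3 lay above all pacing libraries and sham replicate 1 did not. None of them separated the arms with all 6 libraries.

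DMP1, an acidic matrix phosphoprotein best known from bone and dentine, stood at 20.1, 16.8 and 25.2 RPKM in pacing and 36.2, 87.3 and 94.3 in sham (log2 difference -1.66 ± 0.35 SE, adjusted p = 0.313), with all sham libraries above all pacing libraries and an adjusted p of 0.0158 without sham replicate 1. The bitter taste receptor gene TAS2R40 stood at 2.55, 2.42 and 2.295 RPKM in pacing and 2.02, 9.18 and 6.98 in sham, where sham replicate 1 was lower than pacing. On the higher side, ITGA2, the collagen-binding integrin alpha 2 chain, stood at 5.73, 8.92 and 7.47 RPKM in pacing and 8.96, 1.83 and 1.95 in sham (log2 difference 0.92 ± 0.47 SE, adjusted p = 0.597). The activity-induced factor EGR3 stood at 3.004, 3.13 and 2.54 RPKM in pacing and 3.58, 1.17 and 1.08 in sham (log2 difference 0.50 ± 0.29 SE, adjusted p = 0.628). The matrix glycoprotein FBLN2 stood at 2.84, 3.32 and 2.59 RPKM in pacing and 2.96, 1.05 and 0.888 in sham (log2 difference 0.65 ± 0.27 SE, adjusted p = 0.543). In these 3 higher genes sham replicate 1 lay within or above the pacing range while sham replicates 2 and 3 were below it. RAMP2, which turns the calcitonin-like receptor into a receptor for adrenomedullin, differed from them in that its arms did not overlap, at 2.47, 2.28 and 2.603 RPKM in pacing and 1.92, 1.11 and 0.926 in sham (log2 difference 0.60 ± 0.16 SE, adjusted p = 0.391).

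**Figure D3:**
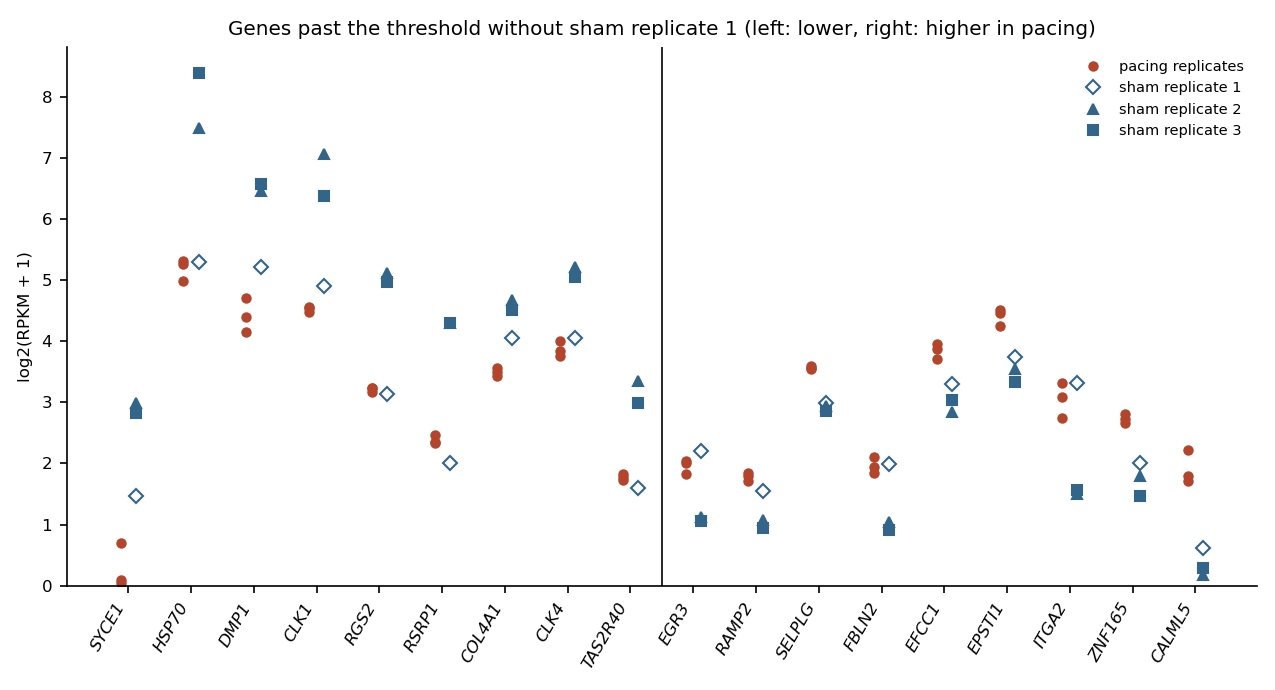
The y axis is log2(RPKM + 1) of genes past an adjusted p of 0.05 without sham replicate 1, for each library: red circles for pacing, and blue open diamonds, filled triangles and filled squares for sham replicates 1, 2 and 3. The genes were chosen by leaving out sham replicate 1, which places it nearest to pacing; in HSP70, RGS2, RSRP1, TAS2R40, EGR3, FBLN2 and ITGA2 it lies within or beyond the pacing range.

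Pathways were described over 45 lists by the number of tested members in each direction and their median, beside the same over all symbol genes (5074 higher, 7096 or 58.3% lower, median -0.032). No list held a passing gene. Medians ran from -0.12 to 0.083. Of the 45, 31 were below 0, and 14 under median-of-ratios scaling. Under that scaling 45.1% of all symbol genes were lower, with a median of 0.020. When members were averaged in each library, 10 of the 45 lists lay lower and 1 higher in all pacing libraries, without overlap. Single symbol genes did so for 10.6% and 4.57%, and no such share was computed for averages of other gene sets. These averages are of values as deposited. The library factors of median-of-ratios scaling ran from 0.982 to 0.991 in pacing and from 0.997 to 1.05 in sham, so that scaling shifts whole lists.

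**Figure D4:**
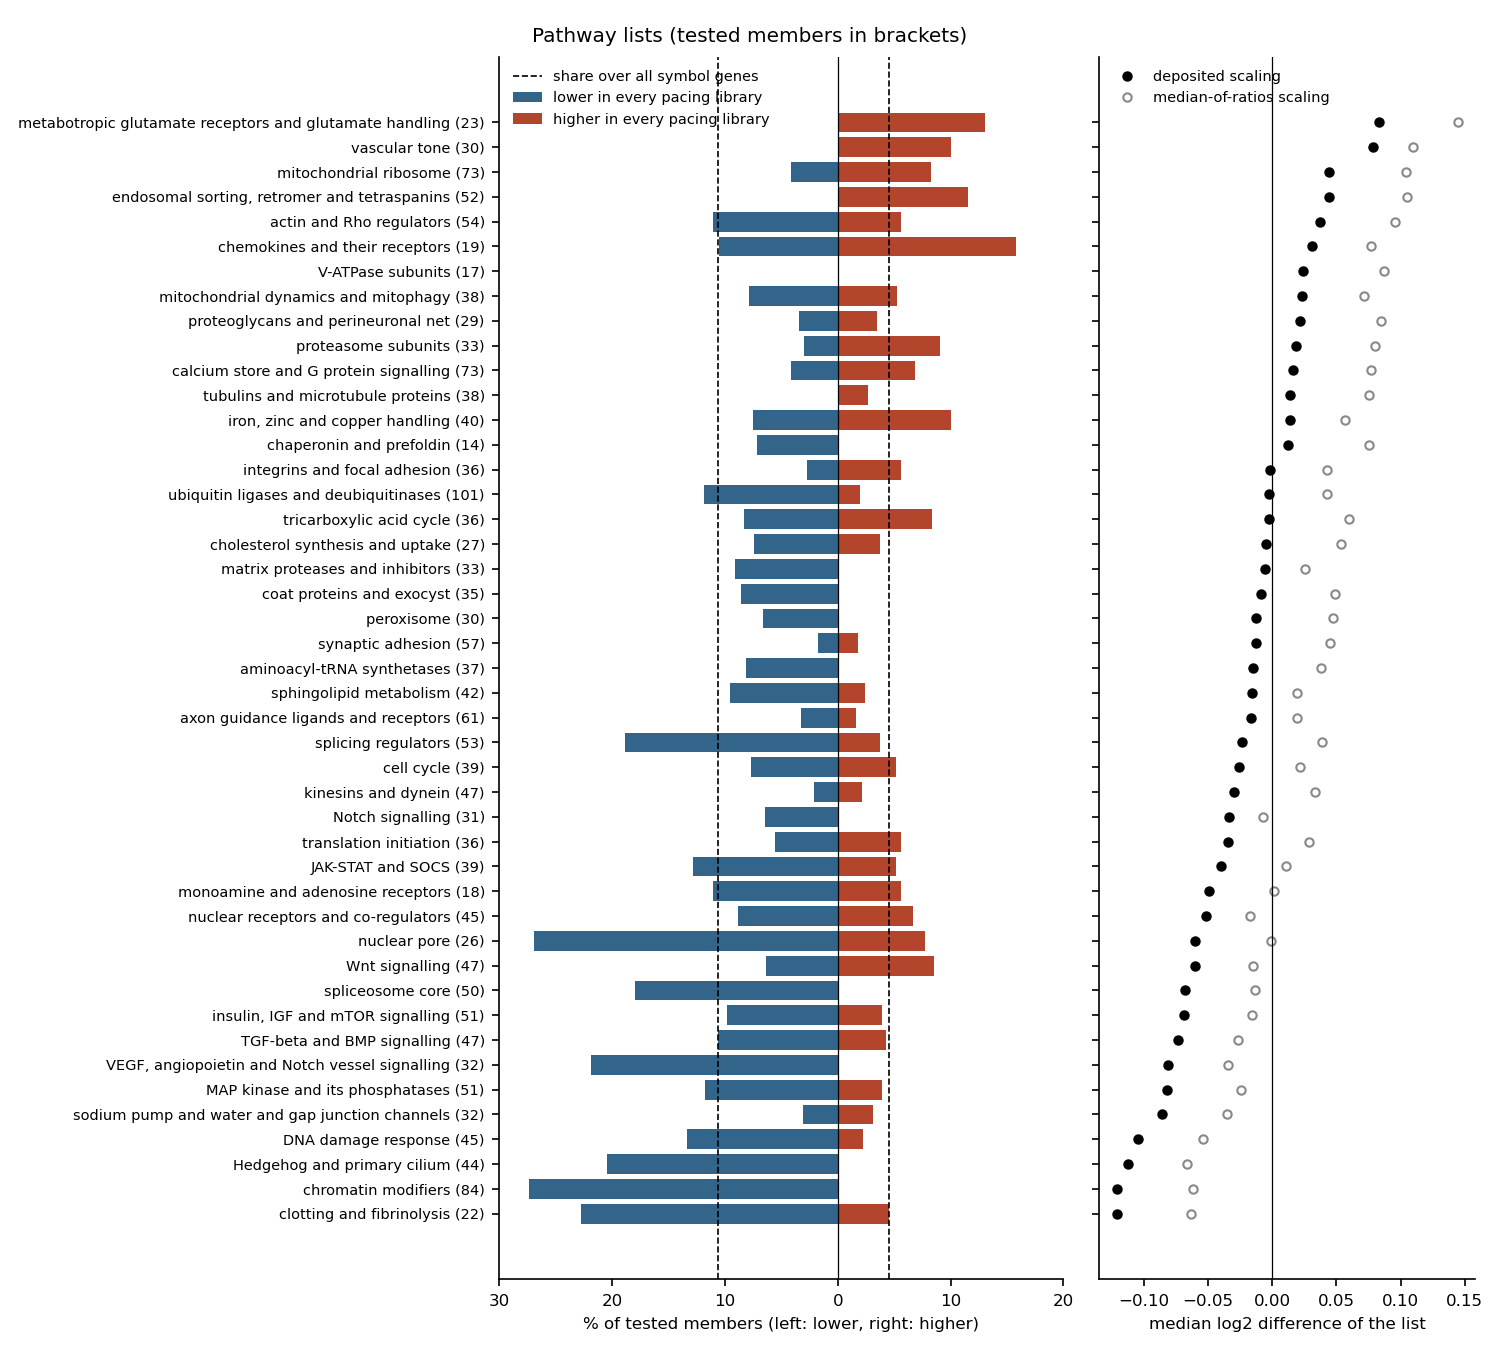
For each of 45 pathway lists, ordered by median, bars on the left panel give the percentage of tested members lower (blue, to the left) or higher (red, to the right) in every pacing library, with dashed lines at the shares over all symbol genes (10.6% and 4.57%). The right panel gives the list's median log2 difference as deposited (filled) and under median-of-ratios scaling (open), which lies to the right in every list.

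Chromatin modifiers, the enzymes and remodellers that write, erase and act on histone and DNA marks, stood lowest among the large lists. Of 84 tested members 69 were lower and 15 higher in pacing, with a median of -0.12. In every pacing library 23 were lower (27.4%) and 0 higher, against 10.6% and 4.57% over all genes. Under median-of-ratios scaling it was 16 (19%, against 7.07%), without sham replicate 1 it was 42 (50%, against 25.4%) and without sham replicate 2 it was 25 (29.8%, against 18.8%). KAT8, a histone H4 acetyltransferase, stood at 23.7, 21.8 and 19.3 RPKM in pacing and 29.1, 29.2 and 33.1 in sham (log2 difference -0.48 ± 0.11 SE, adjusted p = 0.322). KDM5C, an X-linked demethylase of histone H3, stood at 8.08, 7.57 and 8.26 RPKM in pacing and 9.46, 11.3 and 9.84 in sham (log2 difference -0.32 ± 0.10 SE, adjusted p = 0.455). ARID1A, a subunit of SWI/SNF remodellers, stood at 10.5, 9.28 and 11.1 RPKM in pacing and 11.9, 14.5 and 12.98 in sham (log2 difference -0.32 ± 0.11 SE, adjusted p = 0.476). The acetyltransferase EP300 stood at 8.01, 8.38 and 6.77 RPKM in pacing and 8.76, 12.8 and 10.5 in sham. The methyltransferase KMT2D stood at 3.09, 3.13 and 3.14 RPKM in pacing and 3.56, 3.78 and 4.48 in sham; both were chosen after their values were seen. All of these genes were lower in every pacing library, and no sham library lay within the pacing range. The members are long genes, with a median exon length of 6188 bases against 3193 over all symbol genes, and the part of length in their shares was not tested.

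Splicing and nuclear pore genes lay on the same side. Of 50 spliceosome core genes 37 were lower, 9 of them in every pacing library (18%) and 0 higher in every one, with a median of -0.069. Under median-of-ratios scaling 26 were lower and 24 higher, where 45.1% of all symbol genes were lower. In every pacing library 6 were then lower (12%, against 7.07%) and 1 higher (2%, against 8.1%), and the median was -0.014. Without sham replicate 1 the share lower in every pacing library was 42%, against 25.4% over all genes. Without sham replicate 2 it was 20%, against 18.8%. BCAS2, a subunit of the Prp19 complex, stood at 33.9, 32.6 and 36.4 RPKM in pacing and 40.6, 46.6 and 46.8 in sham (log2 difference -0.37 ± 0.10 SE, adjusted p = 0.391). The helicase DHX16 stood at 25.7, 24.8 and 26.2 RPKM in pacing and 27.8, 33.4 and 34.3 in sham (log2 difference -0.30 ± 0.11 SE, adjusted p = 0.483). PRPF3, a protein of the U4/U6 particle, stood at 17.99, 18.2 and 18.2 RPKM in pacing and 20.7, 31.04 and 22.5 in sham (log2 difference -0.41 ± 0.15 SE, adjusted p = 0.488). Their arms were apart, although sham replicate 1 was close to pacing in DHX16. Of 53 splicing regulators 31 were lower, 10 in every pacing library (18.9%) against 2 higher. The median of -0.023 turned to 0.039 under median-of-ratios scaling, where 6 were lower in every pacing library (11.3%, against 7.07%). Without sham replicate 1 the lower share was 24.5%, against 25.4% over all genes, and without sham replicate 2 it was 26.4%, against 18.8%. The neuronal RNA-binding protein gene CELF4 went the other way, at 28.2, 27.2 and 27.4 RPKM in pacing and 22.6, 22.8 and 22.4 in sham (log2 difference 0.28 ± 0.081 SE, adjusted p = 0.41001).

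Of 26 nuclear pore genes 7 were lower (26.9%) and 2 higher (7.69%) in every pacing library, with 3 on each side under median-of-ratios scaling. The basket protein gene NUP153 stood at 2.67, 2.55 and 2.72 RPKM in pacing and 2.99, 3.59 and 3.28 in sham (log2 difference -0.23 ± 0.10 SE, adjusted p = 0.546). NUP98, a phenylalanine-glycine repeat nucleoporin gene, stood at 5.23, 4.69 and 4.79 RPKM in pacing and 5.77, 5.54 and 5.88 in sham (log2 difference -0.19 ± 0.093 SE, adjusted p = 0.586). The scaffold nucleoporin gene NUP107 was higher in every pacing library, at 7.91, 8.02 and 7.93 RPKM in pacing and 7.46, 6.19 and 6.33 in sham (log2 difference 0.23 ± 0.10 SE, adjusted p = 0.5498).

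Primary cilium and Hedgehog genes, which build the sensory cilium and its ligand pathway, were lower in 35 of 44 tested members, with a median of -0.11. In every pacing library 9 were lower (20.45%, against 10.6% over all genes) and 0 higher (against 4.57%). Under median-of-ratios scaling 8 were lower (18.2%, against 7.07%) and 2 higher (4.55%, against 8.1%). The lower count was 17 without sham replicate 1 (38.6%, against 25.4%) and 12 without sham replicate 2 (27.3%, against 18.8%). IFT172, of the intraflagellar transport complex that moves cargo to the tip, stood at 10.2, 9.495 and 10.03 RPKM in pacing and 12.2, 14.8 and 14.4 in sham (log2 difference -0.44 ± 0.10 SE, adjusted p = 0.3505). IFT122, of the complex for return transport, stood at 4.64, 4.36 and 4.02 RPKM in pacing and 5.23, 5.99 and 5.62 in sham (log2 difference -0.31 ± 0.10 SE, adjusted p = 0.455). OFD1, a basal body protein gene, stood at 10.97, 11.6 and 12.4 RPKM in pacing and 14.1, 14.5 and 14.8 in sham (log2 difference -0.29 ± 0.09 SE, adjusted p = 0.429). The Hedgehog receptor PTCH1, chosen after its values were seen, stood at 1.41, 1.21 and 1.33 RPKM in pacing and 1.66, 1.73 and 2.11 in sham. All 4 separated the arms. Ependymal markers are genes of the motile cilia of ventricle-lining cells, and all 10 tested were also lower by arm mean. Their summed level lay between 26.2 and 41.6 RPKM in pacing and 31.9 and 59.1 in sham. Single sham libraries differed between the lists. The mean log2 deviation in sham replicates 1, 2 and 3 was -0.014, 0.083 and 0.11 for the cilium list. For ependymal markers it was 0.38, -0.13 and 0.44, and sham replicate 2 fell inside the pacing range of these markers. Their part in the cilium result was not tested.

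Genes of p53 and the DNA damage response were lower in 38 of 45, with a median of -0.10. In every pacing library 6 were lower (13.3%) and 1 higher, so this share lay near that of all genes. ERCC5, the nuclease of nucleotide excision repair, stood at 6.91, 7.23 and 7.91 RPKM in pacing and 10.5, 13.6 and 9.71 in sham (log2 difference -0.54 ± 0.14 SE, adjusted p = 0.3602). PRKDC, the kinase of end joining, stood at 4.08, 4.21 and 4.19 RPKM in pacing and 4.704, 5.72 and 5.305 in sham (log2 difference -0.27 ± 0.10 SE, adjusted p = 0.498). Both were lower in every pacing library, with sham replicate 2 highest.

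Among 32 genes of vessel growth signalling 21 were lower, 7 of them in every pacing library (21.9%) and 0 higher in every one, with a median of -0.082. Without sham replicate 2 the count was again 7 (21.9%, against 18.8% over all genes) and the median turned to 0.016. Under median-of-ratios scaling 17 were lower and 15 higher, where 45.1% of all symbol genes were lower. In every pacing library 5 were then lower (15.6%, against 7.07%) and 0 higher. Without sham replicate 1 it was 11 lower (34.4%, against 25.4%) and 5 higher (15.6%, against 13%). The list's library means overlapped between arms as deposited. Of 12 endothelial markers 3 were higher (25%) and 1 lower (8.33%) in every pacing library, and their part in the list's values was not tested. ANGPT2, the ligand that destabilises vessels, stood at 0.901, 0.951 and 0.858 RPKM in pacing and 1.17, 4.25 and 3.02 in sham (log2 difference -0.91 ± 0.29 SE, adjusted p = 0.455). ROBO4, an endothelial guidance receptor, stood at 0.596, 0.5204 and 0.601 RPKM in pacing and 0.7896, 1.55 and 1.105 in sham (log2 difference -0.43 ± 0.14 SE, adjusted p = 0.455). The TGF-beta co-receptor ENG stood at 0.848, 0.805 and 0.736 RPKM in pacing and 1.04, 1.63 and 1.05 in sham (log2 difference -0.31 ± 0.13 SE, adjusted p = 0.538). The growth factor VEGFA, chosen after its values were seen, stood at 11.4, 12.1 and 12.2 RPKM in pacing and 13.4, 16.5 and 13.5 in sham. Sham replicate 2 was highest in all 4, and sham replicate 1 was nearest to pacing.

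Clotting and fibrinolysis genes were lower in 14 of 22, 5 in every pacing library (22.7%) and 1 higher. Their median of -0.12 moved between -0.15 and 0.015 as libraries were left out. Under median-of-ratios scaling 5 were lower (22.7%, against 7.07%) and 2 higher (9.09%, against 8.1%) in every pacing library. The urokinase gene PLAU stood at 0.536, 0.517 and 0.504 RPKM in pacing and 0.777, 1.54 and 0.8099 in sham (log2 difference -0.41 ± 0.15 SE, adjusted p = 0.493). Its receptor PLAUR stood at 0.579, 0.647 and 0.321 RPKM in pacing and 0.887, 2.99 and 1.09 in sham (log2 difference -0.73 ± 0.27 SE, adjusted p = 0.506). F3, tissue factor, the trigger of clotting, went the other way at 23.3, 17.6 and 18.2 RPKM in pacing and 14.3, 16.3 and 14.9 in sham (log2 difference 0.35 ± 0.13 SE, adjusted p = 0.487). Matrix proteases and inhibitors had a median of -0.0057 over 33 genes, with 3 lower in every pacing library (9.09%) and 0 higher. Their ADAMTS1, a protease of proteoglycans, stood at 6.38, 6.87 and 6.01 RPKM in pacing and 6.81, 23.7 and 15.3 in sham (log2 difference -0.98 ± 0.37 SE, adjusted p = 0.508), again with sham replicates 2 and 3 alone above pacing by a wide margin.

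Vascular tone was the 1 pathway list whose library means were higher in every pacing library (0.00091 to 0.066) than in every sham library (-0.045 to -0.024). Of 30 genes 17 were higher, 3 in every pacing library (10%) and 0 lower in every one. NOS1, the neuronal nitric oxide synthase, stood at 9.51, 7.27 and 8.54 RPKM in pacing and 7.17, 4.26 and 4.92 in sham (log2 difference 0.57 ± 0.18 SE, adjusted p = 0.449). RAMP1, the co-receptor for the dilator CGRP and chosen after its values were seen, stood at 4.25, 3.42 and 3.72 RPKM in pacing and 2.98, 3.09 and 2.98 in sham, and RAMP2 is given above. These 3 did not overlap between arms, while EDN1, the constrictor endothelin, was lower by mean at 1.64, 1.34 and 1.83 RPKM in pacing and 1.74, 3.39 and 3.66 in sham (log2 difference -0.56 ± 0.21 SE, adjusted p = 0.494) and did overlap. Pericyte and smooth muscle markers, higher in 8 of 10, were the cell list whose library means were also apart, from 0.045 to 0.072 in pacing and -0.19 to 0.027 in sham, and their part in the vascular tone list was not tested.

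**Figure D5:**
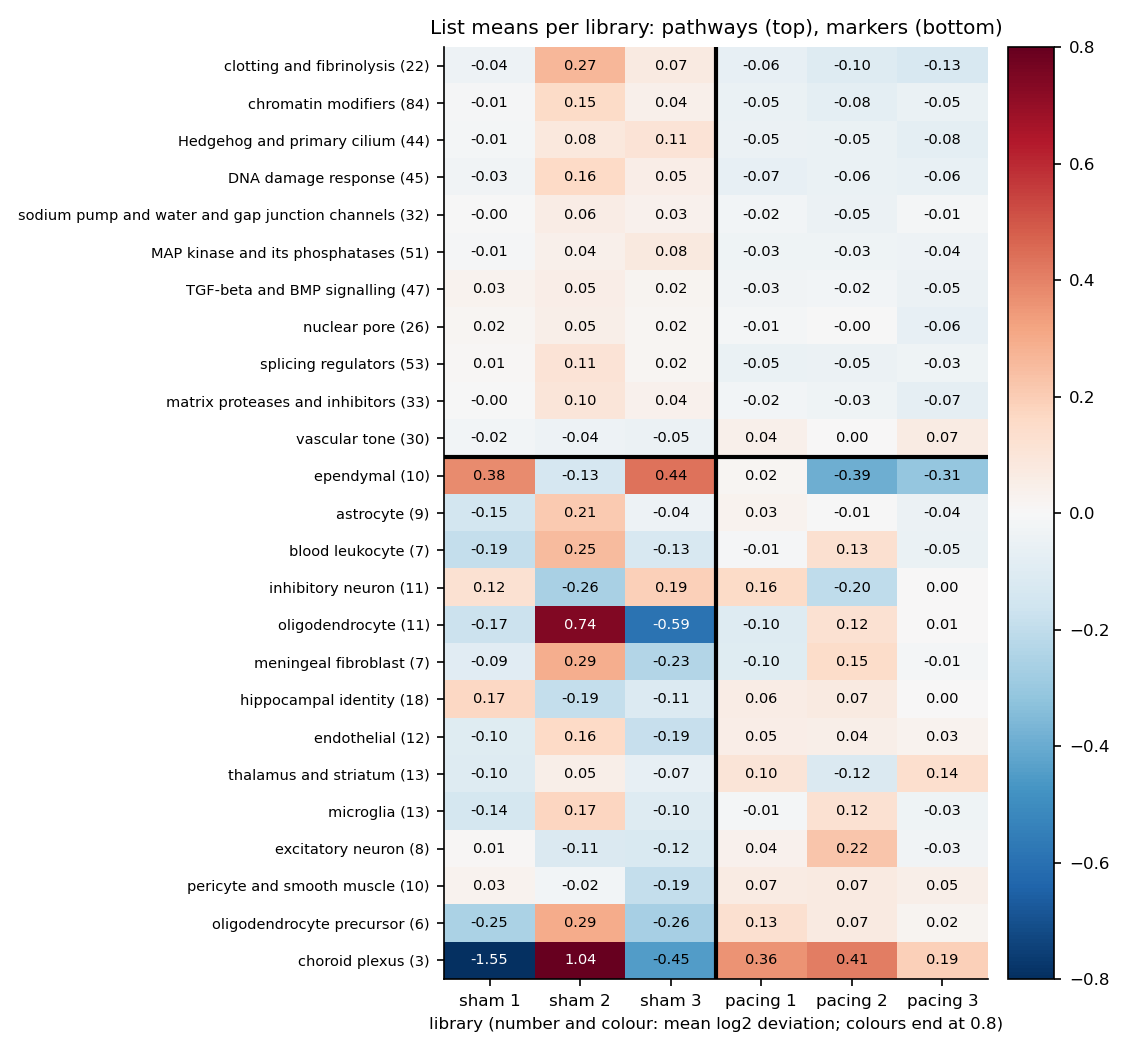
Mean log2 deviation of each list from the mean of the 6 libraries (columns: 3 sham, 3 pacing), for the pathway lists whose arms are apart (above the line) and the marker lists with at least 3 tested members (below it). Values of the pathway lists lie within 0.3 of 0, whereas choroid plexus and oligodendrocyte markers differ by over 1 between sham libraries.

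Endosomal sorting genes, which carry membrane cargo into multivesicular bodies and exosomes, were higher in 35 of 52, with a median of 0.044. In every pacing library 6 were higher (11.5%, against 4.57%) and 0 lower; under median-of-ratios scaling 13 were higher (25%, against 8.1%), and without sham replicate 2 it was 10 (19.2%, against 10.6%). VPS37B, of the ESCRT-I complex, stood at 18.01, 17.2 and 15.5 RPKM in pacing and 14.1, 11.9 and 10.96 in sham (log2 difference 0.43 ± 0.12 SE, adjusted p = 0.393). Its partner TSG101, chosen after its values were seen, stood at 15.5, 17.6 and 15.5 RPKM in pacing and 14.1, 15.3 and 14.3 in sham. SNX3, a retromer sorting nexin, stood at 64.5, 61.4 and 56.6 RPKM in pacing and 49.3, 53.03 and 50.9 in sham (log2 difference 0.25 ± 0.092 SE, adjusted p = 0.499). The tetraspanin CD82 stood at 1.84, 1.67 and 1.88 RPKM in pacing and 1.35, 1.501 and 1.04 in sham (log2 difference 0.29 ± 0.11 SE, adjusted p = 0.5204). Differences were small, but no sham library reached a pacing library in these 4. Without sham replicate 1, 11 members were higher (21.2%, against 13% over all genes) and 9 lower (17.3%, against 25.4%) in every pacing library. V-ATPase subunits had 0 of 17 members apart in either direction, and coat and exocyst genes had 3 of 35 lower (8.57%) and 0 higher.

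Mitochondrial ribosome genes, encoded in the nucleus, were higher in 44 of 73, with 6 higher (8.22%) and 3 lower (4.11%) in every pacing library and a median of 0.044. Under median-of-ratios scaling 60 were higher, 15 of the 73 in every pacing library (against 8.1% of all genes), and the median was 0.10. MRPL44 stood at 8.92, 9.28 and 8.96 RPKM in pacing and 7.82, 7.81 and 6.48 in sham (log2 difference 0.27 ± 0.10 SE, adjusted p = 0.516). MRPS14 stood at 9.74, 10.6 and 10.3 RPKM in pacing and 12.9, 12.5 and 13.5 in sham (log2 difference -0.32 ± 0.088 SE, adjusted p = 0.394). MRPL35 stood at 16.6, 19.3 and 20.1 RPKM in pacing and 21.2, 22.7 and 26.7 in sham (log2 difference -0.32 ± 0.12 SE, adjusted p = 0.516). Members thus lay on both sides with separate arms. MRPS14 shares 90 exon bases with TNN on the other strand, which differed by -0.59. Tricarboxylic acid cycle genes had 3 of 36 apart on each side (8.33%). Their malic enzyme ME1 stood at 7.599, 7.28 and 6.81 RPKM in pacing and 5.97, 5.11 and 6.33 in sham (log2 difference 0.28 ± 0.11 SE, adjusted p = 0.521). Mitochondrial dynamics genes had 2 of 38 higher and 3 lower, with the inner membrane protease YME1L1 at 47.97, 48.3 and 50.3 RPKM in pacing and 54.9, 65.5 and 60.3 in sham (log2 difference -0.29 ± 0.10 SE, adjusted p = 0.457).

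Proteasome subunits had 3 of 33 higher (9.09%) and 1 lower (3.03%) in every pacing library, and 7 higher (21.2%, against 8.1%) and 1 lower under median-of-ratios scaling. The lower one was PSMA4, a 20S core subunit, at 31.7, 28.6 and 31.2 RPKM in pacing and 41.8, 40.5 and 37.5 in sham (log2 difference -0.38 ± 0.093 SE, adjusted p = 0.359). Its model has 810 exon bases on chromosome X from 53245249 to 53246357, and whether it shares reads with another copy was not tested. Of 14 chaperonin and prefoldin genes 8 were higher as deposited and 13 under median-of-ratios scaling, with 0 and 1 of them higher in every pacing library. Translation initiation genes had 2 of 36 apart on each side (5.56%), and aminoacyl-tRNA synthetases 3 of 37 lower (8.11%) and 0 higher. HARS2, the mitochondrial histidyl-tRNA synthetase, stood at 9.35, 9.32 and 9.598 RPKM in pacing and 11.2, 11.8 and 12.4 in sham (log2 difference -0.29 ± 0.088 SE, adjusted p = 0.417). Ubiquitin ligases and deubiquitinases had 12 of 101 lower (11.9%) and 2 higher (1.98%), with the cullin CUL7 at 6.52, 6.42 and 6.52 RPKM in pacing and 8.304, 8.01 and 8.51 in sham (log2 difference -0.31 ± 0.086 SE, adjusted p = 0.394). The conjugating enzyme UBE2E1 stood at 11.7, 12.3 and 13.2 RPKM in pacing and 14.8, 16.2 and 16.5 in sham (log2 difference -0.33 ± 0.094 SE, adjusted p = 0.3996). Under median-of-ratios scaling the ubiquitin list had 9 lower and 5 higher. As deposited, each of these shares of lower genes lay near or below the 10.6% of all genes.

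Signalling lists held separated members on both sides. Under median-of-ratios scaling MAP kinase genes had 4 lower and 3 higher and TGF-beta and BMP genes 3 on each side, and as deposited the counts were larger on the lower side. MAP kinase genes had 6 of 51 lower (11.8%) and 2 higher (3.92%) in every pacing library and a median of -0.083. The dual-specificity phosphatase DUSP3 was higher, at 37.4, 39.8 and 40.4 RPKM in pacing and 30.4, 28.8 and 30.7 in sham (log2 difference 0.37 ± 0.085 SE, adjusted p = 0.322). The receptor kinase inhibitor SPRY4 was lower, at 1.18, 1.29 and 1.21 RPKM in pacing and 1.37, 2.52 and 3.38 in sham (log2 difference -0.57 ± 0.21 SE, adjusted p = 0.492). TGF-beta and BMP genes had 5 of 47 lower (10.6%) and 2 higher. SMAD3, a signal transducer of the TGF-beta branch, was higher at 1.87, 1.75 and 1.99 RPKM in pacing and 1.45, 0.841 and 1.28 in sham (log2 difference 0.40 ± 0.13 SE, adjusted p = 0.455). BMP4, a ligand, stood at 1.34, 1.36 and 1.48 RPKM in pacing and 1.49, 3.22 and 2.33 in sham (log2 difference -0.45 ± 0.19 SE, adjusted p = 0.543). The inhibin chain INHA stood at 0.5503, 0.4603 and 0.455 RPKM in pacing and 0.7396, 1.13 and 1.11 in sham (log2 difference -0.42 ± 0.11 SE, adjusted p = 0.391). The arms were apart for all 5 of these genes.

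In the insulin and mTOR list 5 of 51 genes were lower (9.8%) and 2 higher in every pacing library. PIK3R3, a regulatory subunit of phosphoinositide 3-kinase whose symbol, like that of PLAUR, was not matched in the RefSeq table and lies outside the 12170 genes, stood at 4.33, 3.84 and 3.91 RPKM in pacing and 5.85, 6.67 and 7.52 in sham (log2 difference -0.61 ± 0.11 SE, adjusted p = 0.273). IGFBP6, which binds insulin-like growth factor 2, was higher at 2.68, 4.59 and 1.42 RPKM in pacing and 0.378, 1.38 and 1.005 in sham (log2 difference 0.97 ± 0.32 SE, adjusted p = 0.4599), with wide spread in pacing. Wnt genes had 4 of 47 higher (8.51%) and 3 lower (6.38%), and the receptor FZD6 stood at 8.27, 8.95 and 7.89 RPKM in pacing and 6.63, 6.25 and 4.45 in sham (log2 difference 0.48 ± 0.14 SE, adjusted p = 0.417). Chemokine genes had 3 of 19 higher (15.8%) and 2 lower (10.5%). The T cell attractant CCL5 stood at 0.755, 0.673 and 0.936 RPKM in pacing and 0.131, 0.405 and 0.323 in sham (log2 difference 0.48 ± 0.12 SE, adjusted p = 0.3602). The thymic chemokine CCL25 stood at 0.913, 1.07 and 1.27 RPKM in pacing and 1.74, 1.89 and 1.91 in sham (log2 difference -0.45 ± 0.10 SE, adjusted p = 0.322). Members of each of these lists thus separated the arms in both directions. JAK-STAT genes had 5 of 39 lower (12.8%) and 2 higher, with the growth hormone receptor GHR at 1.08, 1.03 and 1.001 RPKM in pacing and 1.39, 1.603 and 1.98 in sham (log2 difference -0.38 ± 0.11 SE, adjusted p = 0.407).

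Metabotropic glutamate receptors and glutamate handling, 1 list of 23 genes, had a median of 0.083, the highest of the 45 lists as deposited. It was not the highest under quantile scaling, where vascular tone stood at 0.13 and this list at 0.10. Without pacing replicate 1 its median was 0.03. It had 3 higher (13%) and 0 lower in every pacing library. The glial glutamate transporter SLC1A3, the first of the 3, stood at 527, 477 and 510.02 RPKM in pacing and 340.3, 438 and 454 in sham (log2 difference 0.31 ± 0.14 SE, adjusted p = 0.551). The cystine-glutamate exchanger SLC7A11 stood at 3.64, 3.54 and 3.52 RPKM in pacing and 3.24, 2.64 and 2.57 in sham (log2 difference 0.26 ± 0.11 SE, adjusted p = 0.534). Glutamate dehydrogenase GLUD1 stood at 82.3, 78.98 and 80.2 RPKM in pacing and 69.2, 72.6 and 71.97 in sham (log2 difference 0.17 ± 0.082 SE, adjusted p = 0.579). SLC1A3 is also an astrocyte marker, and 5 of the 9 tested astrocyte markers were lower by arm mean. Calcium store and G protein genes had 5 of 73 higher (6.85%) and 3 lower (4.11%). PLCD4, a phospholipase C, was lower at 3.34, 3.12 and 3.11 RPKM in pacing and 3.47, 8.61 and 6.85 in sham (log2 difference -0.73 ± 0.26 SE, adjusted p = 0.484), with sham replicate 1 just above pacing and the others far above. Synaptic adhesion, axon guidance, kinesin and tubulin lists had between 0 and 3.28% of members lower and between 1.64 and 2.63% higher in every pacing library, below the shares of all genes. Without sham replicate 2 the comparison reversed on the lower side, at 24.6% for synaptic adhesion, 21.3% for axon guidance, 23.4% for kinesins and 23.7% for tubulins, against 18.8% of all genes.

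Iron, zinc and copper genes had 4 of 40 higher (10%) and 3 lower (7.5%) in every pacing library. Beside SLC39A3, the transferrin receptor TFRC, which imports iron, was higher at 7.47, 8.33 and 7.38 RPKM in pacing and 6.36, 5.04 and 7.15 in sham (log2 difference 0.29 ± 0.13 SE, adjusted p = 0.559). The astrocytic zinc importer SLC39A12 was lower at 1.21, 0.953 and 1.01 RPKM in pacing and 1.36, 1.53 and 2.79 in sham (log2 difference -0.46 ± 0.18 SE, adjusted p = 0.534). Nuclear receptor genes had 3 of 45 higher (6.67%) and 4 lower (8.89%), with the retinol carrier RBP4 at 7.69, 4.51 and 6.497 RPKM in pacing and 2.67, 3.12 and 4.29 in sham (log2 difference 0.72 ± 0.20 SE, adjusted p = 0.394). Sphingolipid genes had 1 of 42 higher and 4 lower (9.52%). Cholesterol synthesis had 1 of 27 higher and 2 lower (7.41%), and its lower gene TM7SF2, a sterol reductase, stood at 1.08, 0.968 and 1.26 RPKM in pacing and 1.301, 1.84 and 1.78 in sham (log2 difference -0.32 ± 0.12 SE, adjusted p = 0.494) with sham replicate 1 next to pacing.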

How the data were processed

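The hippocampal table holds RPKM deposited by the authors, reads scaled to exon length and assigned reads, for 31158 gene models whose sequence names are those of CanFam3.1. The mRNA kit was stranded, per the labels' protocols. Trimmomatic 0.36, STAR 2.5.3a and featureCounts were used, per the submitters' processing notes; annotation release and strand setting are not stated there. The exosome table, deposited in RPM by the authors, entered no test. RPKM multiplied by gene length gave whole reads for 100% of values (within 1e-06), which set the depth and the edgeR alternative.

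The 16090 genes averaging at least 0.5 RPKM were fitted by limma-trend (limma 3.58.1, R 4.3.3) on log2(RPKM + 1); Benjamini-Hochberg adjusted p-values over all of them were called at 0.05. Alternatives changed the pseudocount, filter, scaling and library weights, used edgeR 4.0.16 quasi-likelihood, added a replicate block and left out each library; the counts of members apart without sham replicate 1 or 2 and under median-of-ratios scaling were added after seeing the data. The fits were tested on simulated reads. DESeq2 was not run: no deposited table holds counts, and the reads recovered from RPKM entered the edgeR alternative. Gene type came from a RefSeq table of assembly UU_Cfam_GSD_1.0, in which 25961 symbols occur.

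The genes and lists were chosen with earlier results of these data known. Named were the 20 higher and 20 lower protein-coding symbol genes of smallest p, up to 3 members per list, and up to 10 genes per direction that passed without sham replicate 1. Counts include every gene; 2 of the first 40 and 2 selected list members are not reported here, and other list members are left out for length. No list was tested as a set, and no sequence is printed.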

Additional observations from a re-analysis of the deposited data

How the results depend on the processing

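The count of all passing genes, 4, became 23 with library weights, 7 with no filter and 7 with the replicate block, and lay between 3 and 95 as each library was left out, the highest without sham replicate 1 and 9 without sham replicate 2. For protein-coding symbol genes, 0 became 7 with library weights and 1 each with edgeR, median-of-ratios scaling, a pseudocount of 0.1, quantile scaling and the replicate block, and lay between 0 and 45 as each library was left out. The cause was not tested. The labels do not say that the replicate numbers pair the libraries. Correlations of same-numbered deviations were -0.11, 0.064 and -0.011, and those of differently numbered ones ran from -0.23 to 0.27. With 3 libraries per arm these values cannot show whether same-numbered libraries share a batch. The block result, with CALML5 as its 1 symbol gene, is therefore given only here. Among recomputed gene differences 3186 kept their direction and call and 5 reversed. With a library left out ATP6V1C1 ranged from -0.015 to 0.29, CLDN11 from -0.019 to 0.50, OPALIN from -0.068 to 0.85 and TTR from -0.42 to 3.09, and TTR was -0.52 with edgeR. Another 39 passed the threshold only under an alternative, 26 of them without sham replicate 1. Of the recomputed list medians 846 stayed within the spread between libraries and 54 moved further, 15 of them under median-of-ratios scaling. Of the recomputed counts of list members apart between arms, 199 moved by over 1.5 times or to or from 0, and 161 did not. Depth was 35003483 to 51789497 assigned reads per library.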

Other observations

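Some lists outside the comparisons above had few separated members. Of 30 peroxisome genes 2 were lower in every pacing library (6.67%) and 0 higher, and PEX3, which brings proteins to the peroxisomal membrane, stood at 7.91, 7.74 and 6.68 RPKM in pacing and 5.91, 5.37 and 6.701 in sham with arms that overlapped (adjusted p = 0.544). Of 31 Notch genes 2 were lower (6.45%) and 0 higher, with the Notch inhibitor NUMB at 18.4, 16.7 and 19.8 RPKM in pacing and 19.8, 25.5 and 28.96 in sham. Of 18 monoamine and adenosine receptor genes 1 was higher (5.56%) and 2 lower (11.1%), with the serotonin receptor HTR7 at 1.51, 2.0002 and 1.77 RPKM in pacing and 3.11, 2.01 and 2.68 in sham. Of 29 proteoglycan genes 1 was apart on each side (3.45%), and the small leucine-rich proteoglycan OMD stood at 1.69, 1.73 and 1.92 RPKM in pacing and 1.25, 1.15 and 0.757 in sham.

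PVALB, the calcium buffer of fast-spiking interneurons, stood at 10.98, 12.4 and 13.3 RPKM in pacing and 8.07, 9.77 and 6.96 in sham (adjusted p = 0.378), and the tachykinin precursor TAC1, from the list of thalamus and striatum markers, at 1.997, 3.53 and 3.71 RPKM in pacing and 1.29, 1.702 and 0.692 in sham (adjusted p = 0.383). Both were higher in every pacing library. Of 13 thalamus and striatum markers 3 were higher (23.1%, against 4.57% of all symbol genes) and 1 lower (7.69%) in every pacing library. The higher ones were TAC1, RORA and ADARB1, and the lower one was PLEKHG1, which is also in the list of hippocampal identity. As deposited, 8 of the 11 tested interneuron markers were lower by arm mean, and under median-of-ratios scaling 5 were lower and 6 higher. Over all symbol genes 58.3% and 45.1% were lower. By chromosome, the median difference of symbol genes lay between -0.065 and 0.0025.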
